A study of Homo sapiens with 9 samples.

Results

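The Notch pathway genes measured here were the receptors NOTCH1, NOTCH2 and NOTCH3, the ligands DLL1, DLL3 and JAG1, the enzyme POFUT1, the transcription factor RBPJ and the target genes HES1 and HEY1. All probes carrying 1 of these 10 gene names were kept, which gave 13 probes of the 42405 on the array, and 12 of the 13 entered the test. The set was chosen by a measured value of POFUT1, whose probe A_23_P370479 ranked 5 by p among the 29134 probes tested in mipafox against control. The values of that probe are therefore given as a description and not as a test. It also passed the filter on dim probes through the paraoxon arrays alone. The question put to the data was whether the other genes of the pathway followed it.

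RNA was taken from NT2 cells, an established human embryonal carcinoma line that differentiates towards neuronal-like cells under retinoic acid (RA). All cultures received 10 μM RA, and for 4 days (96 h in the sample labels) the cells were also exposed to the organophosphorus compound paraoxon at 1 μM, to the organophosphorus compound mipafox at 5 μM, or to neither (control). Each condition was measured on 3 one-colour arrays with the letters A, B and C, which the paper describes as technical and the deposited labels as biological replicates, so the p-values measure the spread between these arrays and that spread may be technical. Slide 1 carried control A to C with mipafox A, and slide 2 carried paraoxon A to C with the other two mipafox arrays. Paraoxon and control thus shared no slide, and a fit with slide as a block separates them only through the mipafox arrays.

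Notch receptors are cell surface proteins that are cleaved when a ligand of the Delta or Jagged family on a neighbouring cell binds them. The freed intracellular part enters the nucleus, joins the DNA-binding protein RBPJ and turns on genes of the HES and HEY families, which repress proneural genes and hold neural progenitors back from becoming neurons. POFUT1 adds fucose to the epidermal growth factor-like repeats of the receptors, a modification that receptors need for normal signalling and that the Fringe enzymes extend.

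Probes well above background made up 65.7% to 73.6% of those on an array, and precision is limited by the number of arrays. The 75th percentile of the processed signal, which was set to 0 on the log2 scale of each array, ranged from 802.1 to 1589.6. Of the marker genes on the array, 11 of 11 pluripotency genes, 11 of 11 RA response genes, 7 of 8 neural progenitor genes and 7 of 10 neuron genes had a probe well above background on all 9 arrays. The same held for 5 of 7 glia genes, 4 of 4 endothelium genes, 4 of 5 blood genes and 7 of 8 fibroblast and muscle genes. The glial filament gene GFAP and the globin gene HBB were well above background on none of the 9 arrays.

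The probes are 60 bases long, and those of POFUT1, RBPJ and NOTCH1 are shown because the largest differences between group means were read from 3 of them and because the other POFUT1 probe differs from the first. Capitals mark G and C. For POFUT1 and RBPJ the last 30 bases are given, and for NOTCH1, where the probe ends in the stop codon taa, the whole probe.
POFUT1 A_23_P370479 (chr20:30826235-30826294, hg19, + strand): atttGtaaGaGtttttCtttatttaaaatG
POFUT1 A_33_P3384845 (chr20:30805666-30805725, hg19, + strand): atCtttaataaataaCaaCaGCtaaGattC
RBPJ A_23_P29994 (chr4:26432686-26432745, hg19, + strand): tttCttGGGaaaaCttttCataCCaGGtGa
NOTCH1 A_33_P3370424 (chr9:139390523-139390582, hg19, - strand): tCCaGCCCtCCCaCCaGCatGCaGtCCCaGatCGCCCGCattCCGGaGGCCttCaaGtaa
The POFUT1 probe that chose the set had 9 G or C bases in 60, a GC content of 15.0%, against a median of 45.0% over the tested probes. Only 3 of the 29134 tested probes (0.0103%) had a GC content as low as this. The other member probes had between 35.0% and 61.7%. The 2 POFUT1 probes lie in different transcripts of the annotation, A_23_P370479 at base 4986 of its transcript and A_33_P3384845 at base 1446 of another. Exon and untranslated region status were not derived, since no hg19 gene annotation was used here.

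POFUT1 A_23_P370479 gave a normalised log2 signal of -7.67, -8.24 and -9.18 on control A, B and C. In the same order of letters it gave -6.12, -5.46 and -5.66 with paraoxon and -6.25, -5.52 and -5.82 with mipafox. All 6 exposed arrays lay above the 3 control arrays, by 2.62 (SE 0.36) with paraoxon and by 2.50 (SE 0.36) with mipafox. The mipafox value comes from the comparison that chose the probe, and the paraoxon value shares its 3 control arrays. The next member by p in the mipafox comparison, RBPJ, ranked 2114.

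The fitted differences are not exact, because the control arrays did not measure this probe well above background. On the 3 control arrays and on mipafox A, which make up slide 1, it was not well above background, and on the 5 arrays of slide 2 it was. Set against a bound for the control arrays, the mean over the paraoxon arrays was 4.89-fold higher. This is not a strict lower limit, because the bound rests on the lowest well-above-background signal of each array. On mipafox A that signal was -7.31, and this probe at -6.25 was still not well above background. No bound is given for mipafox, since 1 of its 3 arrays did not measure the probe. In scanner units the spot had a mean pixel signal of 43.2, 41.3 and 37.7 on the control arrays, where the background subtracted was 38.6, 37.1 and 36.2. With paraoxon the signal was 64.2, 66.3 and 50.5 over a background of 42.1, 39.7 and 35.4, and with mipafox it was 48.1, 60.0 and 61.5 over 37.7, 37.2 and 40.2. The subtracted background ran from 35.4 to 42.1, and the signal above it was 4.6, 4.2 and 1.5 on control, 22.1, 26.6 and 15.1 on paraoxon and 10.4, 22.8 and 21.4 on mipafox. There was 1 such spot per array. The value of control C was a surrogate that the scanner software put in place of a signal too close to background. Only 0.961% of the tested probes had a lower mean over the 9 arrays, and the SD over the control arrays was 0.76 against a median of 0.18 over all tested probes.

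No array of slide 1 measured the probe well above background, so the difference of 2.12 between mipafox A and the control mean there has no exact size. On slide 2 alone, the paraoxon mean was 0.08 below the mean of mipafox B and C (a difference of -0.08). With slide as a block the log2 fold change was 2.04 with paraoxon, and for mipafox it was the same 2.12 as on slide 1. The size also depended on how background was treated: with an offset of 50 added after normexp correction the fold changes were 0.45 and 0.56, and in the authors' processed log2 values they were 0.43 and 0.43.

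**Figure D1:**
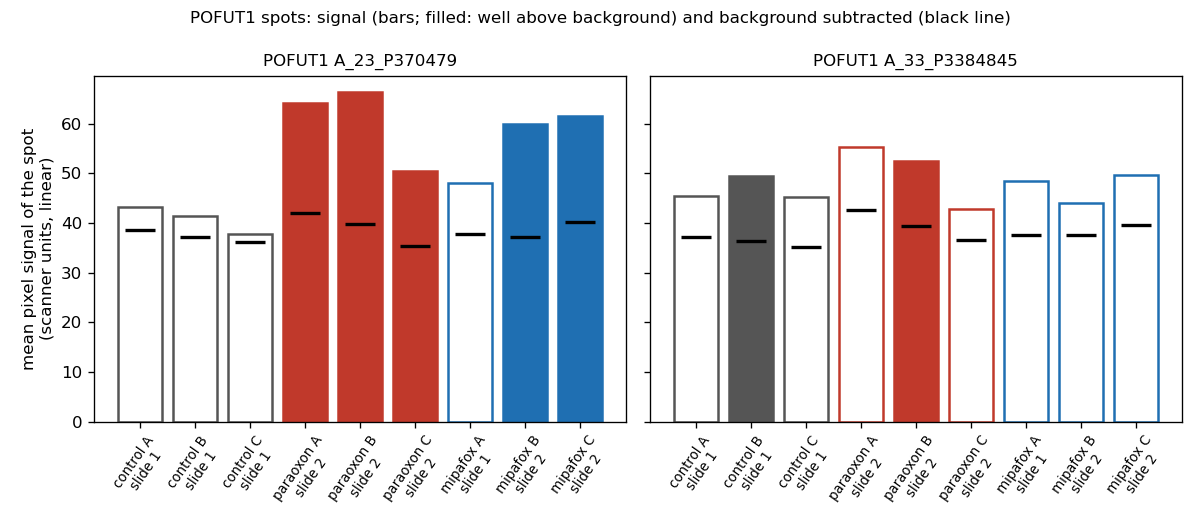
Mean pixel signal (scanner units, linear, from 0) of the 2 POFUT1 spots on each of the 9 arrays, with the subtracted background as a black line; filled bars were well above background. The signal of A_23_P370479 lay between 37.7 and 43.2 on control, 50.5 and 66.3 on paraoxon and 48.1 and 61.5 on mipafox, while that of A_33_P3384845 overlapped between the conditions.

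POFUT1 A_33_P3384845, the other probe of the gene, did not show the same pattern. Its normalised log2 signal was -6.94, -6.72 and -7.18 on control, -7.01, -6.56 and -7.03 on paraoxon and -6.29, -7.42 and -6.98 on mipafox. The 3 conditions overlapped, with a difference from control of 0.08 for paraoxon and 0.05 for mipafox. It was well above background on 2 arrays only (control B and paraoxon B) and did not enter the test. A fall or a small rise of the transcript it measures was therefore not detectable. A rise as large as that of the first probe was not seen, from a control mean of -6.95 against -8.36 for the first probe. Across the 9 arrays its Pearson correlation with the first probe was 0.07.

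NOTCH1, the receptor best known for keeping neural progenitors undifferentiated, was measured by 2 probes that disagreed. NOTCH1 A_33_P3370424, which ends at the stop codon, gave 1.48, 1.00 and 0.87 on control, 1.79, 1.21 and 2.13 on paraoxon and 1.36, 2.30 and 1.51 on mipafox. The means of the exposed arrays were higher but their values overlapped the control arrays, with a log2 fold change of 0.59 (SE 0.31, adjusted p = 0.461, limma) for paraoxon and 0.60 (SE 0.31, adjusted p = 0.79) for mipafox. With slide as a block these were 0.04 and 0.24, the latter being mipafox A minus control on slide 1.

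NOTCH1 A_23_P60387 (chr9:139389764-139389823, hg19) gave -3.38, -3.40 and -3.35 on control, -3.21, -3.06 and -4.31 on paraoxon and -3.80, -3.38 and -2.68 on mipafox. Its log2 fold changes were -0.15 (SE 0.35) and 0.09 (SE 0.35), and the paraoxon value was 0.24 without paraoxon C. This probe had 10 spots per array, whose SD on an array was 0.04 to 0.20. The paraoxon arrays spanned 1.25 and the control arrays 0.05. The correlation between the 2 NOTCH1 probes over the 9 arrays was -0.33, a description only because all values share arrays and scaling.

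NOTCH2 A_23_P200792 (chr1:120454858-120454917, hg19) gave 3.19, 3.50 and 3.39 on control, 3.55, 3.75 and 3.42 on paraoxon and 3.40, 3.23 and 3.18 on mipafox. The paraoxon arrays overlapped control. Their lowest value, 3.42, lay just above the highest mipafox value, 3.40, and the adjusted p between paraoxon and mipafox was 0.998 (limma). The log2 fold changes against control were 0.21 (SE 0.15, adjusted p = 0.607, limma) for paraoxon and -0.09 (SE 0.15, adjusted p = 0.968) for mipafox. NOTCH2 A_33_P3258824 (chr1:120539807-120539866, hg19) gave 0.42, 0.36 and 0.31 on control, 0.43, 0.08 and 0.11 on paraoxon and 0.50, 0.08 and -0.20 on mipafox. Its annotation also lists a transcript of NOTCH2NL, a partial copy of NOTCH2, so this probe may not read NOTCH2 alone. Its fold changes were -0.15 and -0.24 (SE 0.19), and with slide as a block 0.41 and 0.14.

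NOTCH3 A_33_P3313055 (chr19:15270489-15270548, hg19), a probe for a receptor of progenitor and vascular mural cells, gave 3.37, 3.22 and 3.16 on control and 3.25, 3.20 and 3.41 on paraoxon. It gave 3.28, 3.70 and 3.73 on mipafox, where B and C lay above all other arrays and A within the control arrays. The log2 fold change for mipafox was 0.32 (SE 0.16, adjusted p = 0.778, limma), and it was 0.03 on slide 1 alone. For paraoxon it was 0.04 (SE 0.16).

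Among the ligands, DLL1, which differentiating neural cells present to their neighbours, gave -0.59, -1.02 and -0.92 on control, -0.99, -0.72 and -0.53 on paraoxon and -0.88, -0.76 and -0.25 on mipafox. Its probe A_23_P167920 (chr6:170591642-170591701, hg19) differed from control by 0.10 and 0.21 (SE 0.21). DLL3, a divergent Delta ligand that acts on receptors of its own cell, was the steadiest member: A_24_P57047 (chr19:39998477-39998536, hg19) gave -1.61, -1.69 and -1.64 on control, -1.54, -1.75 and -1.61 on paraoxon and -1.61, -1.67 and -1.90 on mipafox. Its fold changes were 0.01 (95% interval -0.29 to 0.32) and -0.08 (95% interval -0.38 to 0.22). JAG1, a Jagged family ligand, gave -0.92, -0.60 and -0.62 on control, -0.63, 0.02 and -0.79 on paraoxon and -1.17, -0.85 and -0.28 on mipafox with A_23_P210763 (chr20:10619061-10619120, hg19). All 3 conditions overlapped for each ligand, and the JAG1 fold changes were 0.25 and -0.06 (SE 0.27).

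RBPJ, through which all Notch receptors act on DNA, was the other member whose arrays lay clear of control in a comparison. RBPJ A_23_P29994 gave 2.95, 3.01 and 2.94 on control, 3.46, 3.38 and 3.58 on paraoxon and 3.66, 3.48 and 2.97 on mipafox. All 3 paraoxon arrays lay above all 3 control arrays, while mipafox A and B lay above and mipafox C within them. The log2 fold change was 0.51 (SE 0.18, 95% interval 0.10 to 0.91) for paraoxon and 0.40 (SE 0.18) for mipafox. In limma the adjusted p was 0.27 for paraoxon and 0.72 for mipafox, so neither passed. Mipafox A was 0.70 above the control mean on slide 1, and with slide as a block the paraoxon value was 0.94 (adjusted p = 0.613). Leaving out single arrays gave 0.45 to 0.55 for paraoxon and 0.26 to 0.60 for mipafox, the highest being without mipafox C. RefSeq lists 4 RBPJ pseudogenes, and whether the probe also reads them was not checked here.

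No difference passed the test for the target genes. HES1, a repressor of proneural genes, gave -4.15, -3.83 and -3.86 on control, -3.96, -3.93 and -5.06 on paraoxon and -4.33, -4.07 and -3.99 on mipafox with A_23_P6596 (chr3:193854276-193854463, hg19, a span of 188 bases and thus longer than the probe). Paraoxon C stood below all other arrays and the rest overlapped. The log2 fold changes were -0.37 (SE 0.29, adjusted p = 0.651, limma) and -0.18 (SE 0.29, adjusted p = 0.965), and without paraoxon C the first was 0.00. HEY1, a HES-related repressor, gave -4.89, -4.56 and -4.79 on control, -4.62, -4.45 and -4.61 on paraoxon and -4.40, -5.14 and -4.76 on mipafox with A_32_P83845. Its fold changes were 0.19 and -0.02 (SE 0.20). Mipafox A was the highest and mipafox B the lowest of the 9 arrays for HEY1.

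**Figure D2:**
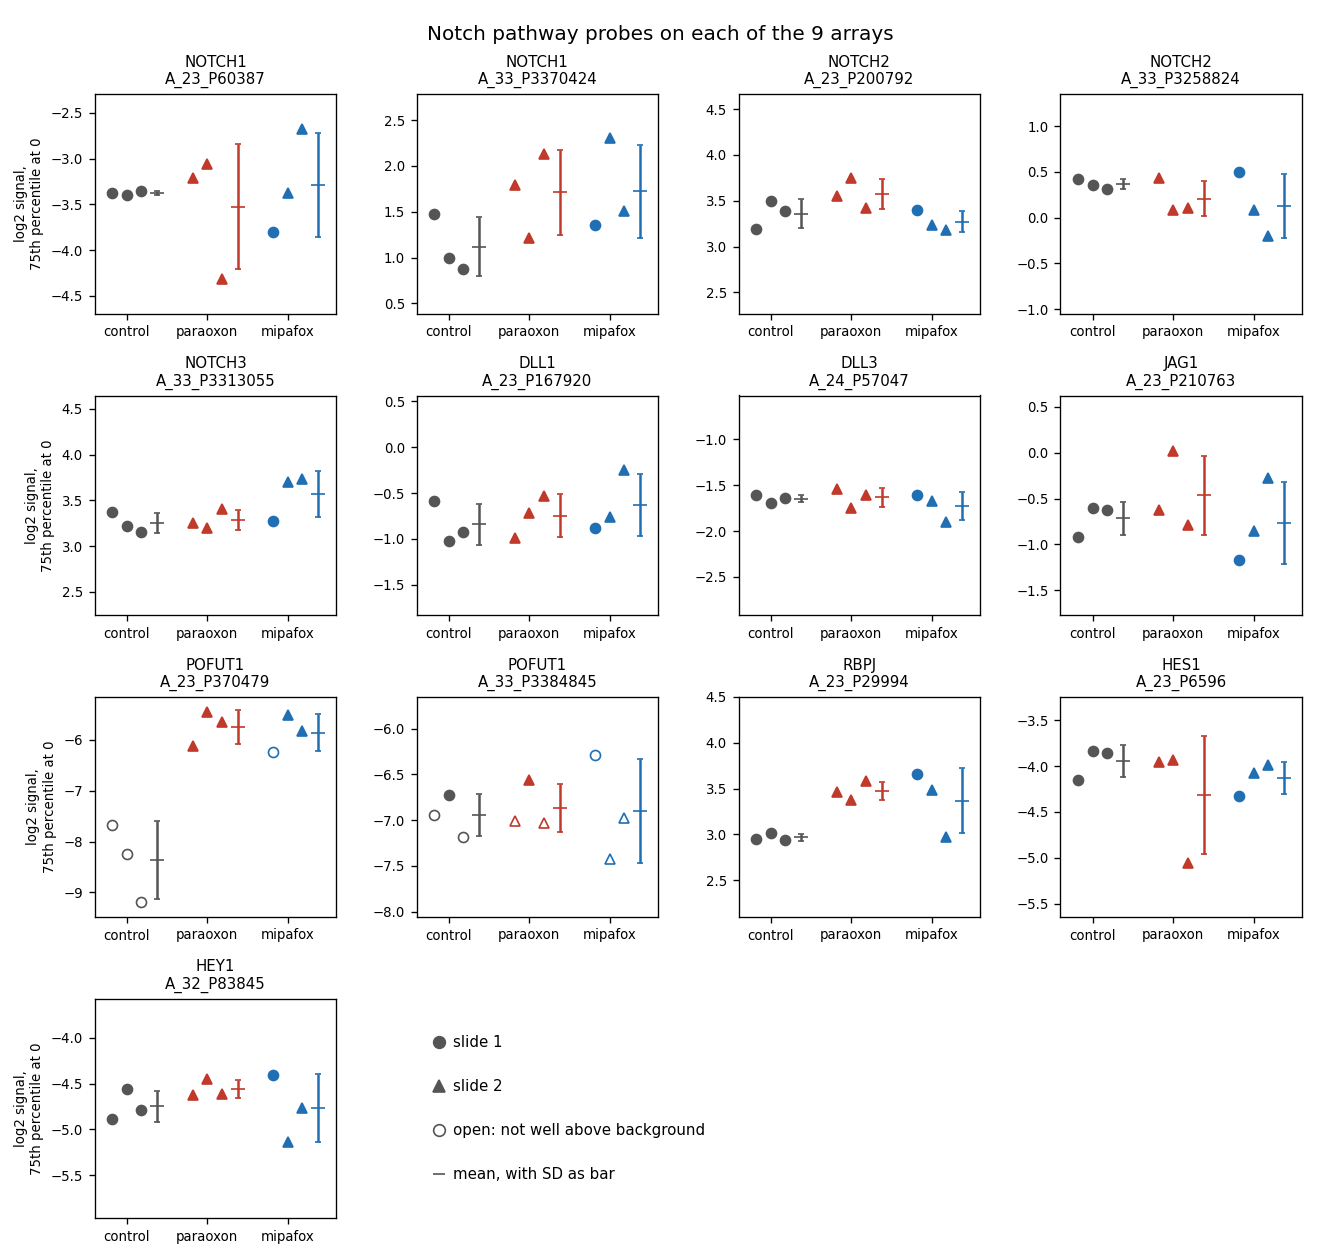
Normalised log2 signal (75th percentile of the array at 0) of the 13 probes on each of the 9 arrays, with the mean and SD of each condition; circles are slide 1, triangles slide 2, and open symbols were not well above background. POFUT1 A_23_P370479 on all 6 exposed arrays and RBPJ on the 3 paraoxon arrays lay above control.

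None of the 12 tested member probes was called against control with paraoxon or with mipafox in limma, where a call needed a log2 fold change beyond 1 with an adjusted p under 0.05. The share called over all 29134 probes was also 0% in both comparisons, and 0% between paraoxon and mipafox, whose doses differ. At an unadjusted p under 0.05, 1 of the 11 tested probes other than POFUT1 differed with paraoxon (RBPJ), against 13.3% of all tested probes, and 0 of 11 with mipafox, against 6.96%. With paraoxon 1 of the 11 did not overlap control, against 23.4% of all tested probes, and with mipafox 0 of 11, against 11.8%. These shares were no larger than the background.

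The 11 probes were higher than control in 8 cases and lower in 3 with paraoxon, and higher in 5 and lower in 6 with mipafox. Their median log2 fold change was 0.10 with paraoxon and -0.02 with mipafox, beside 0.01 and 0.00 over all tested probes, and single values ran from -0.37 to 0.59 and from -0.24 to 0.60. The widest 95% interval, that of NOTCH1 A_23_P60387, reached 0.80 to either side. It is unadjusted and is not the smallest difference that could be called. In limma the smallest adjusted p over all tested probes was 0.0608 with paraoxon and 0.156 with mipafox. Both comparisons share the control arrays. With slide as a block the sign turned for 4 of the 11 with paraoxon and 6 of the 11 with mipafox. In that fit an unadjusted p under 0.05 was reached by RBPJ and HEY1 with paraoxon (HEY1 0.74, adjusted p = 0.613, limma). With mipafox it was reached by RBPJ (0.70, adjusted p = 0.801). Over all 29134 tested probes, 2336 reached it with paraoxon and 1596 with mipafox. The share of the 11 was thus larger than the share over all probes in both comparisons of this fit. With 11 probes this is a description only.

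**Figure D3:**
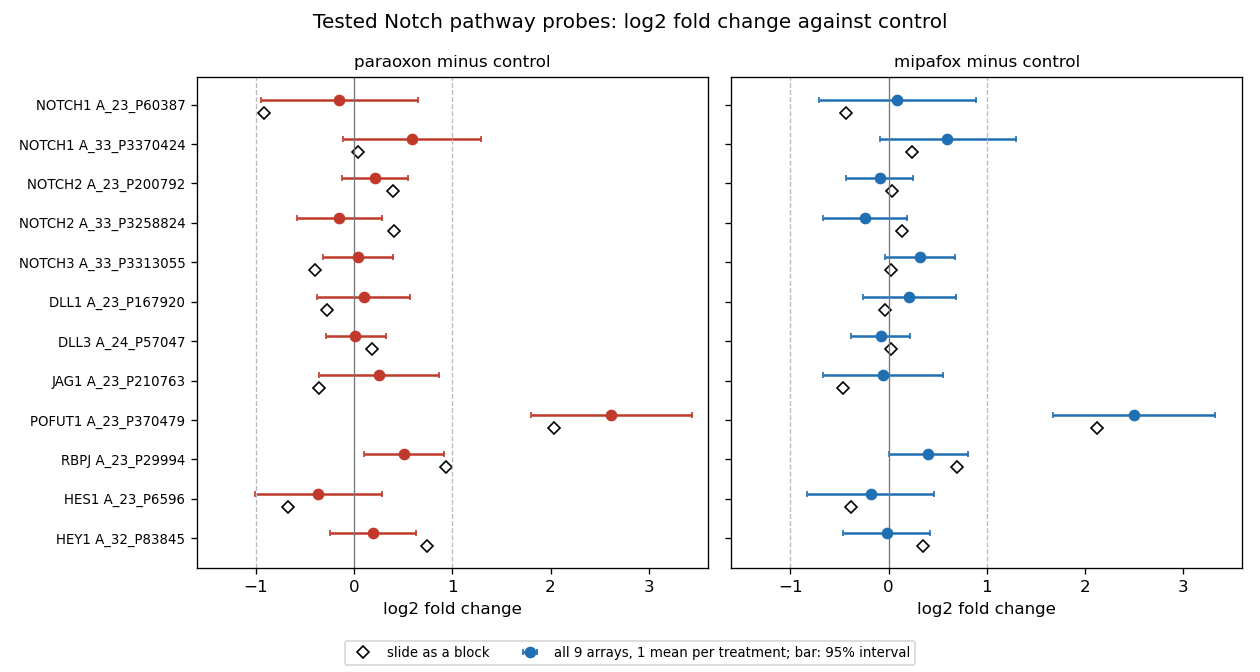
Log2 fold change against control of the 12 tested probes with paraoxon (left) and mipafox (right); filled circles with 95% intervals are the fit of all 9 arrays, open diamonds the same with slide as a block, and dashed lines mark a log2 fold change of 1 either way. Only POFUT1 A_23_P370479, at 2.62 and 2.50, lay beyond the dashed lines.

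The wider pathway was read from 6 lists with 109 tested probes of 87 genes. None of the 109 was called in limma in either comparison. At an unadjusted p under 0.05, 10 probes (9.17%) differed with paraoxon, 2 higher and 8 lower, and 6 (5.50%) with mipafox, 3 higher and 3 lower, beside the 13.3% and 6.96% given above for all probes. The lower ones include a probe of AAK1 and one of KDM5A that passed the filter only through the control arrays, where they are high. In a fit of probes well above background on all 9 arrays, 8 of 104 reached that level with paraoxon and 4 with mipafox. Over all 26325 such probes, 3505 and 1786 did. In 3 lists no probe reached that level in either comparison. These were the receptors and ligands outside the members (10 probes, among them NOTCH4, JAG2 and DLL4), the O-glycan enzymes and the supply of GDP-fucose (15 probes, among them POFUT2, the Fringe genes and FUT8), and receptor cleavage by ADAM proteases and γ-secretase (11 probes).

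Among 25 probes for ubiquitination and trafficking, DTX3L, an E3 ubiquitin ligase, differed by -0.45 (adjusted p = 0.315, limma) with paraoxon and by -0.56 (adjusted p = 0.535) with mipafox. AAK1, an endocytic kinase, had 2 probes of opposite sign. A_33_P3289207 differed by 0.79 with paraoxon and 0.47 with mipafox, by 0.44 and 0.24 with slide as a block. A_33_P3210583 was well above background on the 3 control arrays alone and passed the filter through them. Set against a bound for the exposed arrays, it was 1.43-fold lower with paraoxon and 1.35-fold lower with mipafox. As for POFUT1, these are not strict lower limits. In the nuclear complex list of 30 probes the co-repressor TLE1 had log2 fold changes of -0.49 with paraoxon and -0.27 with mipafox (SE 0.16). In the same order TLE2 had 0.38 and 0.42 (SE 0.15), and CTBP2 -0.56 and -0.32 (SE 0.23). With mipafox only TLE2 of these had an unadjusted p under 0.05 in limma. Their adjusted p ran from 0.23 to 0.865. With slide as a block, in the same order, TLE1 was at -0.01 and 0.04, TLE2 at 0.65 and 0.60, and CTBP2 at 0.00 and 0.06. The probe of the demethylase gene KDM5A also passed the filter through the 3 control arrays alone. Against the same kind of bound, again not a strict limit, it was 1.65-fold lower with paraoxon and 1.71-fold lower with mipafox.

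Among 19 probes of target and proneural genes, both probes of HES6, which counteracts HES1 and favours neuronal differentiation, were lower with paraoxon at an unadjusted p under 0.05. A_23_P131202 had a mean of -1.65 ± 0.16 (SD, n = 3 arrays) on control, -2.45 ± 0.41 on paraoxon and -2.10 ± 0.20 on mipafox. Its log2 fold change was -0.79 (SE 0.22, adjusted p = 0.155, limma) with paraoxon and -0.45 (SE 0.22, adjusted p = 0.757) with mipafox, and -0.47 and -0.23 with slide as a block. The HES6 probe A_33_P3322864 had log2 fold changes of -0.61 and -0.32 (SE 0.20, adjusted p = 0.224 and 0.826, limma). HES3 had -0.79 with paraoxon and -0.21 with mipafox (SE 0.31, adjusted p = 0.307 and 0.962). The proneural gene NEUROG1 had 0.23 and 0.47 (SE 0.17, adjusted p = 0.631 and 0.618). An unadjusted p under 0.05 was reached by HES3 with paraoxon only and by NEUROG1 with mipafox only. With slide as a block HES3 was at -1.07 and -0.39, NEUROG1 at 0.60 and 0.72, and the HES6 probe A_33_P3322864 at -0.32 and -0.13.

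Candidates for likeness to POFUT1 A_23_P370479 were the tested probes with a gene symbol, those of POFUT1 left out. The 5 that followed that probe most closely over the 9 arrays were those of DSCR10 (Pearson r = 0.969), C16orf90 (0.968), MAP3K9 (0.961), PTPRVP (0.943) and MMP19 (0.936). None belongs to the member genes or the 6 lists, and all 5 probes were well above background on 9 arrays. Their log2 fold changes were 0.29 to 0.73 with paraoxon and 0.27 to 0.61 with mipafox. They were the highest among these candidates on 9 points that share arrays, scaling and slides, so the coefficients are a description. Among the member probes the coefficients were 0.70 for RBPJ and for NOTCH1 A_33_P3370424, 0.52 for NOTCH3, 0.43 for DLL1, and 0.17 or lower for the others, down to -0.49 for NOTCH2 A_33_P3258824.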

How the data were processed

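RNA of NT2 cells was hybridized to 9 one-colour Agilent arrays. Spot intensity was extracted by the authors in Agilent Feature Extraction 10.5.1.1, and the deposited scanner output holds processed signal, mean signal and background on a linear scale. The deposited table of the authors' processed log2 values was used as an alternative. Their methods name limma, with limits of 0.05 on the adjusted p and of 1 on the log2 fold change.

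Here log2 of the processed signal was taken, the 75th percentile of each array was subtracted, control spots and flagged outliers were dropped, and the remaining spots of each probe were averaged. A probe was tested if all arrays of some treatment had it well above background and each treatment kept 2 or more values, and the 29134 such probes entered limma 3.58.1 (R 4.3.3) over all 9 arrays, with 1 mean per treatment and Benjamini-Hochberg adjustment over all of them. The script was tested on simulated data. A bound sets the mean of the group that measured a probe against that of the dim group after each dim value was raised, where lower, to the lowest well-above-background signal of its array. It is not a strict limit, since a probe above that signal can still fail to be well above background. Figures were drawn with matplotlib 3.10.9.

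The members and lists (6 pathway lists, 8 marker lists) were chosen with earlier results of these data known. Named were every member probe and list probes at an unadjusted p under 0.05 in either comparison. Also named were the 5 probes with a gene symbol, outside POFUT1, most correlated with the probe that chose the set. NOTCH4, JAG2, DLL4, POFUT2, FUT8 and SPEN fall outside that rule. Alternatives covered normalization, background, dim-probe filter, slide or replicate block, arrays in the fit, variance model, weights, probes per gene, flags, thresholds and each array left out. The authors' values with only 2 treatments in the fit were added after seeing the data. Coordinates are those of the files (hg19), and pseudogenes come from RefSeq on GRCh38.p14.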

Additional observations from a re-analysis of the deposited data

How the results depend on the processing

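No tested member was called in the fit of all 9 arrays. POFUT1 A_23_P370479 was called with paraoxon in 4 alternatives, giving a count of 1 member: array weights, only the 2 treatments in the fit, and without mipafox replicate A or B. Since this probe chose the set and its control arrays are shared, these calls are a description and support nothing. With mipafox, array weights gave 2 calls, POFUT1 and NOTCH1 A_33_P3370424 (1.22, adjusted p = 0.00299 in limma, the lowest of its alternatives, the highest being 1.0). The weights ran from 0.27 to 5.40, and with them 627 probes were called with paraoxon and 1024 with mipafox over all probes, against 0 in the fit reported. Counts over all probes also differed with only the 2 treatments in the fit (276 and 0), the same on the authors' values (142 and 0), slide as a block (1 and 6), without mipafox A (276 and 76), B (77 and 0) and C (1 and 0). The cause was not tested. Leaving out single arrays gave 0 to 1 member called with paraoxon and 0 with mipafox. Taking the unadjusted p, with the limit on the log2 fold change kept, gave 1 member (POFUT1) in each comparison. Over all 29134 probes it gave 638 with paraoxon and 246 with mipafox. In the wider lists it gave 1 probe (KDM5A) with mipafox. There array weights, with the adjusted p, called 2 (HES6 and SPEN).

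The replicate block by letter changed no call: 0 members were called in each comparison. Arrays with the same letter correlated between -0.597 and 0.567 in their deviations, so the letters do not pair them. Arrays of different letters and conditions correlated between -0.587 and 0.661. The highest was paraoxon B with mipafox C, and control C with paraoxon B reached 0.658. The fit reported does not model deviations shared across conditions. The median over all 12 tested members, which include the POFUT1 probe that chose the set, stayed between 0.08 and 0.22 with paraoxon. With mipafox it stayed between -0.02 and 0.20. Of 24 pairs of probe and comparison, 10 kept their sign in all settings that could test them. These include both pairs of the POFUT1 probe that chose the set. With 3 arrays per condition and POFUT1 near background, signal over background was the limit for that probe.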

Other observations

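Apart from POFUT1 A_23_P370479, 2 tested probes had a GC content of 15.0% or lower. Both had a higher mean than control with paraoxon and 1 of the 2 had a higher mean with mipafox. With 2 probes this is a description only, and a link with base composition was not tested.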
